A study of Ovis aries with 3 samples.

Results

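The group of miRNAs around miR-127 and miR-136 was taken from the small RNA sequencing of 3 sections of the sheep intestine, the duodenum (DU), cecum (CE), and colon (CO). Its members were the entries named oar-miR-127, oar-miR-136, oar-miR-431, oar-miR-432, or oar-miR-433, with or without an arm suffix. This gave 5 of the 822 entries counted, and all 5 belonged to the 146 entries for known sheep miRNAs. The remaining entries were predicted miRNAs. The animals were Small tailed Han ewes of 11 months with no treatment given, and the RNA of 3 ewes was pooled into 1 library for each section. The labels give the tissue as intestinal mucosal epithelial tissue. With 1 library per section there was no spread between animals, so each test below compares a pair of libraries and not the sections themselves. All intervals are 95% intervals for counting error only, and sequencing reads amplified by PCR without molecular identifiers are not independent molecules.

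These miRNAs lie in the imprinted DLK1-DIO3 region, in which the maternal chromosome expresses non-coding RNAs and the paternal chromosome expresses protein-coding genes. RTL1, a gene derived from a retrotransposon, is one of the paternal genes. The miRNAs of this group are made from the maternal transcript opposite to it, so they are fully complementary to its mRNA and can direct its cleavage. In sheep the region is known for the callipyge mutation, which enlarges the muscles of the hindquarters. In the RefSeq annotation of the sheep genome, genes named for all 5 members were found on chromosome 18 within the span of RTL1, in the order MIR431, MIR433, MIR127, MIR432, and MIR136. MIR493 and MIR665 precede them, and MIR370 and MIR3955 follow. The annotation used here was of another assembly than that of the counts, so it served for names and order only.

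The mature sequences counted for the members are shown because they separate the 5 entries from each other. They are written as the count files give them, with T for U, and the capitals mark the seed, bases 2 to 8 from the 5′ end, which pairs with target mRNAs.
oar-miR-127: aTCGGATCcgtctgagcttggct
oar-miR-432: tCTTGGAGtaggtcattgggtgg
oar-miR-433-3p: aTCATGATgggctcctcggtgt
oar-miR-136: aCTCCATTtgttttgatgatgga
oar-miR-431: tGTCTTGCaggccgtcatgcagg

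The 5 seeds were all different, and each occurred in 1 of the 822 entries, its own. No other entry contained a member's sequence or was contained in one, so none of these counts was divided with a nested entry. 4 of the sequences were 23 nt long, and that of oar-miR-433-3p was 22 nt. Their GC content ranged from 34.8% in oar-miR-136 to 60.9% in oar-miR-431. It was 52.2% in oar-miR-432, 54.5% in oar-miR-433-3p, and 56.5% in oar-miR-127.

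The counts of all entries summed to 14462675 reads for DU, 15072945 for CE, and 13769740 for CO. Reads were normalized to 1000000 clean reads mapped to the genome. On this scale 3 reads, the floor under which no fold change of a member is given, was a level of 0.179 for DU, 0.176 for CE, and 0.181 for CO.

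oar-miR-127 was by far the most abundant member. Its reads numbered 7603 in DU, 12531 in CE, and 10305 in CO. The level came to 454 normalized reads (444 to 465) for DU, 737 (724 to 750) for CE, and 622 (610 to 634) for CO. It ranked 35, 33, and 34 among the known miRNAs of these libraries. The CE library was highest, the DU library was lowest, and none of the intervals overlapped.

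oar-miR-432 was the second most abundant member in every library. DU held 374 of its reads, CE 606, and CO 641, which were 22.4 (20.1 to 24.7), 35.6 (32.9 to 38.6), and 38.7 (35.8 to 41.8) normalized reads. Its rank among the known miRNAs was 61 in each library. The CE and CO libraries overlapped, and the DU library lay below both.

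oar-miR-433-3p stood at 9.20 normalized reads (7.81 to 10.8) in DU, the lowest level of the 4 members above the limit of detection. CE held 327 reads and CO 368 reads of it, which were 19.2 (17.2 to 21.4) and 22.2 (20.0 to 24.6) normalized reads. The pattern was that of oar-miR-432, with a low DU library and overlapping CE and CO libraries. The rank of oar-miR-433-3p among the known miRNAs was 71, 68, and 63.

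oar-miR-136, like oar-miR-127 known to direct cleavage of the RTL1 transcript, was read 214 times in DU, 271 times in CE, and 207 times in CO. Its levels of 12.8 (11.1 to 14.6), 15.9 (14.1 to 17.95), and 12.5 (10.9 to 14.3) normalized reads lay close together. The CE library gave the highest value, and its interval overlapped those of the DU and CO libraries. It ranked 67, 70, and 72 among the known miRNAs.

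oar-miR-431, known from work on muscle stem cells, was at the limit of detection. It had 1 read in the DU library, a level of 0.0598 normalized reads (0.00151 to 0.333). It had 0 reads in the CE and CO libraries, where the exact intervals reached 0.217 and 0.223 normalized reads. It did not enter the tests, which needed 1 normalized read in either library. No fold change is given, because the count was under the floor of 3 reads in all libraries. Its gene is the first of the row within RTL1, directly before that of miR-433, of which even the DU library held 9.20 normalized reads.

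**Figure D1:**
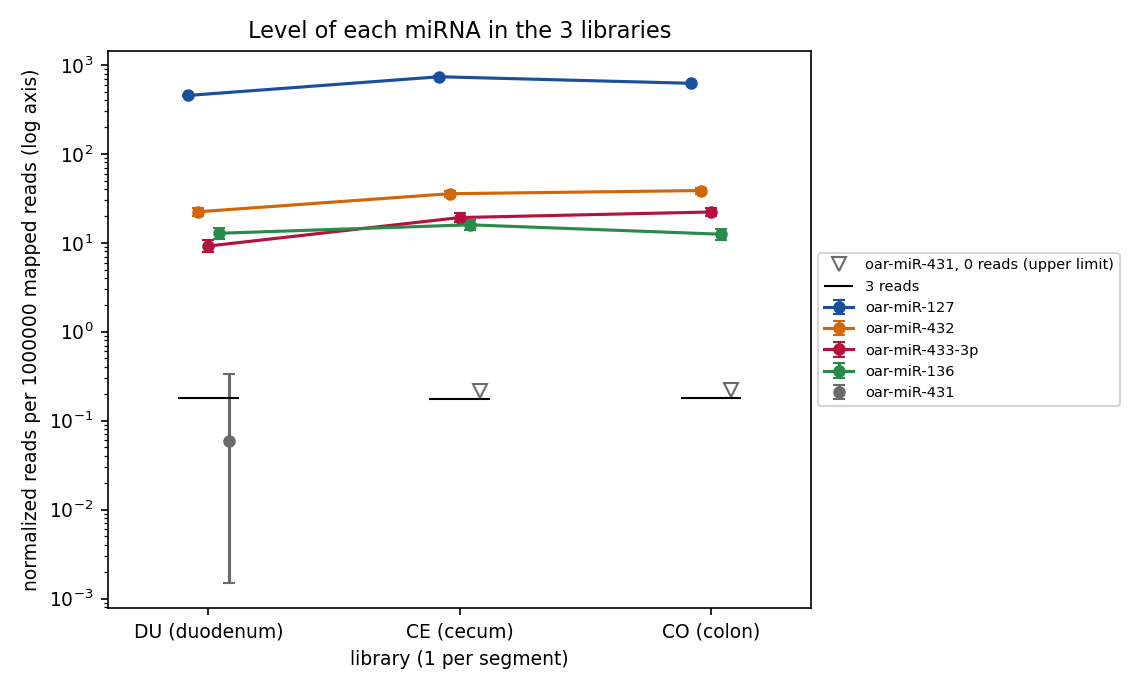
Normalized reads per 1000000 mapped reads (log axis) of each member in the 3 libraries, with exact Poisson 95% intervals as bars. oar-miR-127 lies between 454 and 737, oar-miR-432, oar-miR-433-3p, and oar-miR-136 lie between 9.20 and 38.7, and oar-miR-431 has its 1 read in the DU library under the level of 3 reads (short lines). Open triangles mark the exact upper limits of 0.217 and 0.223 for its 0 reads in the CE and CO libraries.

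Added up, the members came to 8346 reads for DU, 13735 for CE, and 11521 for CO, equal to 499, 808, and 695 normalized reads. This was 0.0760%, 0.103%, and 0.0925% of the reads of known miRNAs. oar-miR-127 alone took 91.1% of the members' reads for DU (Wilson interval 90.5 to 91.7), 91.2% for CE (90.7 to 91.7), and 89.4% for CO (88.9 to 90.0). The sum therefore followed oar-miR-127 and showed little of the other members. Adapter ligation differs between small RNA sequences, so the order of the members is an order of reads and not of molecules.

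The first comparison asked how the CE library differed from the DU library. An entry was called when its Bonferroni-corrected p was under 0.01 and its fold change was at least 2. 4 of the 5 members entered the test, which needed 1 normalized read in either library, and the 4 lay above that in all libraries. 1 of the 4 was called, oar-miR-433-3p, with its higher level in CE. For comparison, 36.5% of the 348 entries tested were called in either direction and 12.1% were called higher in the CE library. These shares include tested entries with reads in only 1 library of the pair, all of which were called. The 4 members had reads in both. Of the 274 tested entries with reads in both, 17 were called higher and 36 lower in the CE library. Among the 93 known entries tested, 9 were called higher and 2 lower in the CE library. In bulk tissue, more cells of a type and more RNA per cell cannot be told apart.

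oar-miR-433-3p was 2.09-fold higher in the CE library (1.72 to 2.55), a log2 ratio of 1.06 (0.78 to 1.35). The corrected p of the exact Audic-Claverie test was 3.10e-12. The interval reached below the 2-fold threshold. The call was lost, here and for CO against DU, in edgeR's exact test with an assumed spread between replicate libraries. That spread was a biological coefficient of variation of 0.2 or 0.4. oar-miR-127 was 1.62-fold higher (1.58 to 1.67, corrected p = 2.39e-247 in the same exact test), and oar-miR-432 was 1.59-fold higher (1.40 to 1.82, corrected p = 2.76e-10, exact). Both passed the correction but not the fold threshold. Thus 3 of 4 members were past the correction and higher in the CE library, where 25.6% of all tested entries were.

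oar-miR-136 had a log2 ratio of 0.32 (0.05 to 0.58) in the CE library over the DU library. Its p was 0.0179 in the exact test before correction and 1 after it, so this difference did not hold up. All 4 tested members had log2 ratios above 0, against 38.8% of all entries tested and 57 of the 93 known entries tested. These 57 included the 4 members, 3 entries of neighbouring miRNAs, and 32 of the miR-379 cluster of the same region. The neighbours and the cluster are described below. The median log2 ratio was 0.69 over the members, −0.31 over all entries tested, and 0.27 over the 93 known entries.

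The second comparison, of the CO library with the DU library, used the same DU library as the first and is not independent of it. Again 1 of the 4 members was called, and again it was oar-miR-433-3p, higher in the CO library. Of the 363 entries tested, 33.9% were called in either direction and 13.8% were called higher in the CO library. Of the 277 tested with reads in both libraries, 13 were called higher and 24 lower in the CO library. Among the 94 known entries tested, 6 were called higher and 0 lower in the CO library.

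The CO library held 2.41-fold more oar-miR-433-3p than the DU library (1.99 to 2.93), a log2 ratio of 1.27 (1.00 to 1.55) with a corrected p of 3.82e-19 in the exact Audic-Claverie test. Here too the interval included a 2-fold change. oar-miR-432 was 1.73-fold higher (1.52 to 1.97, corrected p = 4.25e-15, exact), and oar-miR-127 was 1.37-fold higher (1.33 to 1.41, corrected p = 2.42e-94, exact). These 3 of 4 members were past the correction in this direction, as were 26.4% of all entries tested. oar-miR-136 was the exception, with a log2 ratio of −0.03 (−0.32 to 0.25) and a corrected p of 1 in the exact test. That interval leaves room for a difference of up to about 0.3 on the log2 scale in either direction, and the sign changed with the library size used. Log2 ratios above 0 were found for 3 of 4 members, for 43% of all entries tested, and for 52 of the 94 known ones. These 52 included the 3 members, 3 entries of neighbouring miRNAs, and 30 of the miR-379 cluster. The median over the members was 0.62, beside −0.19 over all tested entries and 0.22 over the known ones.

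The third comparison was made within the large intestine, between the CE and CO libraries. None of the 4 tested members was called. Of the 326 entries tested, 22.7% were called in either direction and 9.82% were called higher in the CE library. Of the 267 tested with reads in both libraries, 6 were called higher and 9 lower in the CE library. Calls were rare among the 94 known entries tested, with 0 higher and 2 lower in the CE library, so the absence of calls was not particular to the members. oar-miR-127 was past the correction with a small difference, 1.18-fold higher in the CE library (1.15 to 1.22, corrected p = 8.39e-35, exact Audic-Claverie test). It was the 1 member of 4 past the correction and higher in the CE library, beside 25.5% of all entries tested.

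oar-miR-136 had a log2 ratio of 0.35 (0.08 to 0.62) in the CE library over the CO library, with a p of 0.00932 before and 1 after correction of the exact test. oar-miR-432 and oar-miR-433-3p had log2 ratios of −0.12 (−0.28 to 0.04) and −0.21 (−0.43 to 0.01), both with a corrected p of 1 in the exact test. Log2 ratios were above 0 for 2 of 4 members, for 45.7% of all entries tested, and for 50 of the 94 known ones. These 50 included the 2 members, 1 entry of the neighbours, and 21 of the miR-379 cluster. The members thus did not share a direction between the CE and CO libraries, and the median of 0.06 over them lay near those over all tested entries (−0.06) and the known ones (0.08).

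**Figure D2:**
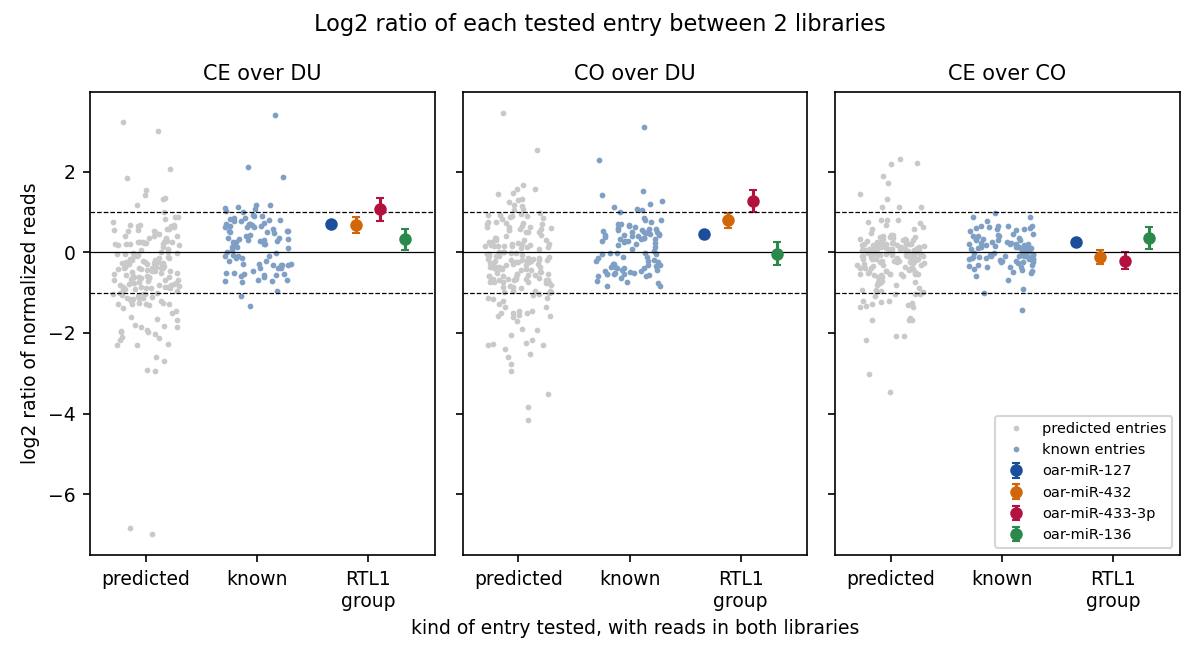
Log2 ratio of normalized reads for predicted entries, known entries, and the 4 tested members of the RTL1 group (exact 95% intervals as bars) between each pair of libraries, for entries tested with reads in both, and with dashed lines at a 2-fold change. oar-miR-433-3p lies at 1.06 for CE over DU and 1.27 for CO over DU, while all 4 members lie between −0.21 and 0.35 for CE over CO.

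Set against oar-miR-127 in the same library, oar-miR-433-3p and oar-miR-432 stood highest in the CO library and oar-miR-136 stood highest in the DU library. This ratio does not depend on the library size. Per 1000 reads of oar-miR-127, oar-miR-433-3p had 20.3 reads for DU (17.2 to 23.8), 26.1 for CE (23.3 to 29.1), and 35.7 for CO (32.1 to 39.6). CO lay above DU and CE without overlap. oar-miR-432 had 49.2 (44.2 to 54.6), 48.4 (44.5 to 52.5), and 62.2 (57.3 to 67.4) reads, and its DU and CE values overlapped. oar-miR-136 had 28.1 (24.5 to 32.2), 21.6 (19.1 to 24.4), and 20.1 (17.4 to 23.1) reads, and its CE and CO values overlapped.

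Between the CO and DU libraries, the change of oar-miR-433-3p relative to oar-miR-127 was 0.82 on the log2 scale (0.54 to 1.10). It was past the correction over all tested entries (corrected p = 6.78e-07, Fisher's exact test). The changes of oar-miR-432 (0.34, corrected p = 0.150) and oar-miR-136 (−0.49, corrected p = 0.248) were not past it in Fisher's exact test. Accordingly 1 of the 3 members was past the correction, where 62.7% of all tested entries were, so a change against oar-miR-127 was not particular to oar-miR-433-3p. Between the CE and CO libraries, oar-miR-432 was lower relative to oar-miR-127 in the CE library, with a change of −0.36 on the log2 scale (−0.53 to −0.20, corrected p = 0.00496, Fisher's exact test). Against all reads of known miRNAs in place of oar-miR-127, this change was −0.18 with a corrected p of 1 in Fisher's exact test. oar-miR-433-3p, at −0.45, narrowly missed the threshold with a corrected p of 0.0156 in Fisher's exact test, and oar-miR-136 stood at 0.11 with a corrected p of 1. Here too 1 of 3 members was past the correction, beside 54.2% of all tested entries. Between the CE and DU libraries none of the 3 was, beside 70%, with changes of −0.38 for oar-miR-136, −0.02 for oar-miR-432, and 0.37 for oar-miR-433-3p and a corrected p of 1 for each in Fisher's exact test.

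**Figure D3:**
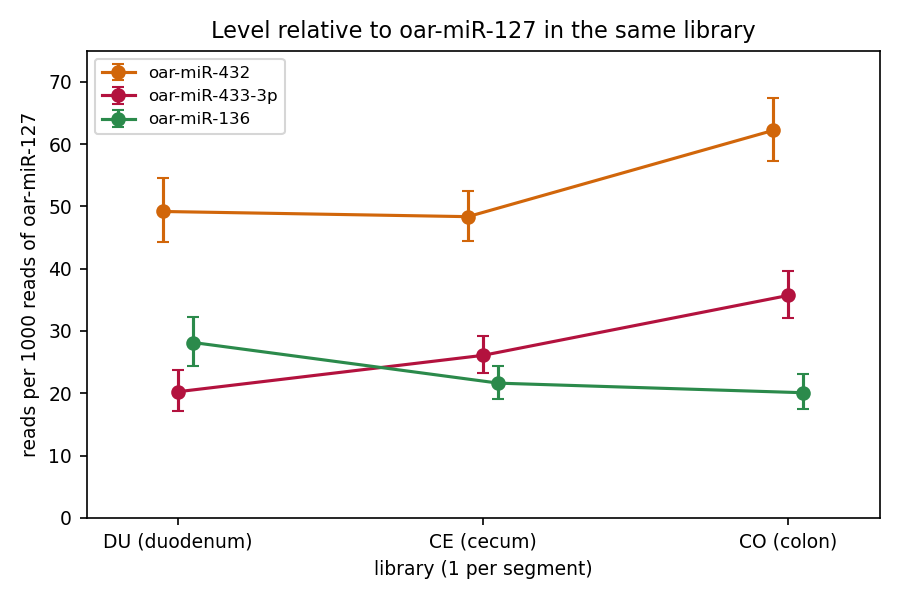
Reads of oar-miR-432, oar-miR-433-3p, and oar-miR-136 per 1000 reads of oar-miR-127 in the 3 libraries, with exact 95% intervals as bars. oar-miR-433-3p goes from 20.3 for DU to 35.7 for CO, while oar-miR-136 goes from 28.1 to 20.1.

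The order of oar-miR-433-3p and oar-miR-136 was not the same in the 3 libraries. The ratio of their reads was 0.720 for DU (0.581 to 0.889), 1.21 for CE (1.02 to 1.42), and 1.78 for CO (1.495 to 2.12). None of these intervals overlapped, and no test was run on this ratio. oar-miR-432 exceeded oar-miR-136 in every library, by 1.75 times in DU, 2.24 times in CE, and 3.10 times in CO. oar-miR-432 exceeded oar-miR-433-3p by 2.43 times in DU (2.01 to 2.95), 1.85 times in CE (1.62 to 2.13), and 1.74 times in CO (1.53 to 1.99), where the interval of CE overlapped those of DU and CO.

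The arms of the member hairpins could not be compared in the counts used here. oar-miR-433 was counted for its 3p arm only, and the other 4 members had 1 entry each with no arm named. By contrast, 42 known precursors had entries for both arms, among them the neighbouring miR-493 and miR-370. The study lists miR-127-5p and miR-136-3p, under goat names, among the miRNAs it identified in its libraries. Their sequences shared no stretch of 12 nt with any of the 822 entries. These other arms were thus missing from the counts used here, which does not mean that they were absent from the tissue.

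The other miRNAs of the region were described by 2 lists, taken by name. The neighbours on either side of RTL1 (miR-493, miR-665, and miR-370) had 5 entries, of which 3 were tested. None was called in either comparison with the DU library, but all 3 had log2 ratios above 0 in both. oar-miR-493-5p and oar-miR-370-3p were past the correction in both, and oar-miR-493-3p for CO over DU only. Past the correction and higher were 25.6% of all entries tested for CE over DU and 26.4% for CO over DU. Of all entries tested, 12.1% were called higher in CE than in DU and 13.8% higher in CO than in DU. The median log2 ratios of the neighbours were 0.37 for CE over DU and 0.51 for CO over DU. oar-miR-493-5p, the neighbour with the most reads, was read 1508 times in DU, 1974 times in CE, and 2131 times in CO, and oar-miR-370-3p 869, 1279, and 1139 times. The larger cluster that starts with miR-379, further along the same imprinted region, had 84 entries. Of these, 35 were tested between the CE and DU libraries. 5 were called higher in the CE library and 0 lower, beside 12.1% of all tested entries and 9 of the 93 known ones called higher. 32 had a log2 ratio above 0, and their median was 0.65. Between the CO and DU libraries 3 of 36 were called higher in the CO library and 0 lower, beside 13.8% of all tested entries and 6 of the 94 known ones called higher. 30 of the 36 had a log2 ratio above 0, and the median was 0.47. The known entries called higher included these calls of the cluster itself. Among all tested entries with reads in both libraries, 17 of 274 were called higher in CE than in DU. For CO over DU they were 13 of 277. Log2 ratios were above 0 for 110 of the 274 and for 119 of the 277. Whether the cluster differed from other entries was not tested. Between the CE and CO libraries 0 of 36 were called in either direction, and the median was 0.18. In that comparison 22.7% of all tested entries were called, but of the 94 known ones only 2, both lower in the CE library.

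The summed level of the cluster of miR-379 was 1373 normalized reads for DU, 2205 for CE, and 1829 for CO. This order, with the CE library first and the DU library last, was also the order of the members' sum. The neighbours' sum was 174, 231, and 244 normalized reads, with the CO library first.

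The 5 known entries outside the group whose pair of log2 ratios lay nearest to that of oar-miR-127 were searched among 70 known entries with at least 100 reads in every library. They were oar-miR-411a-5p (log2 ratio 0.62 for CE over DU and 0.42 for CO over DU, at a distance of 0.0848), oar-miR-125b (0.62 and 0.41), oar-miR-143 (0.64 and 0.54), oar-miR-23b (0.78 and 0.38), and oar-miR-369-5p (0.80 and 0.55). Of these, oar-miR-411a-5p and oar-miR-369-5p come from the miR-379 cluster, and the others are encoded elsewhere. The same search was extended to the other members after their values were seen. The nearest entry to oar-miR-433-3p was oar-miR-323a-3p, at a distance of 0.216, and the nearest to oar-miR-432 was oar-miR-411a-3p, at 0.0372. Both come from the miR-379 cluster. The nearest to oar-miR-136 was oar-miR-21, encoded elsewhere, at 0.112. These distances rest on 3 libraries and are a description.

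**Figure D4:**
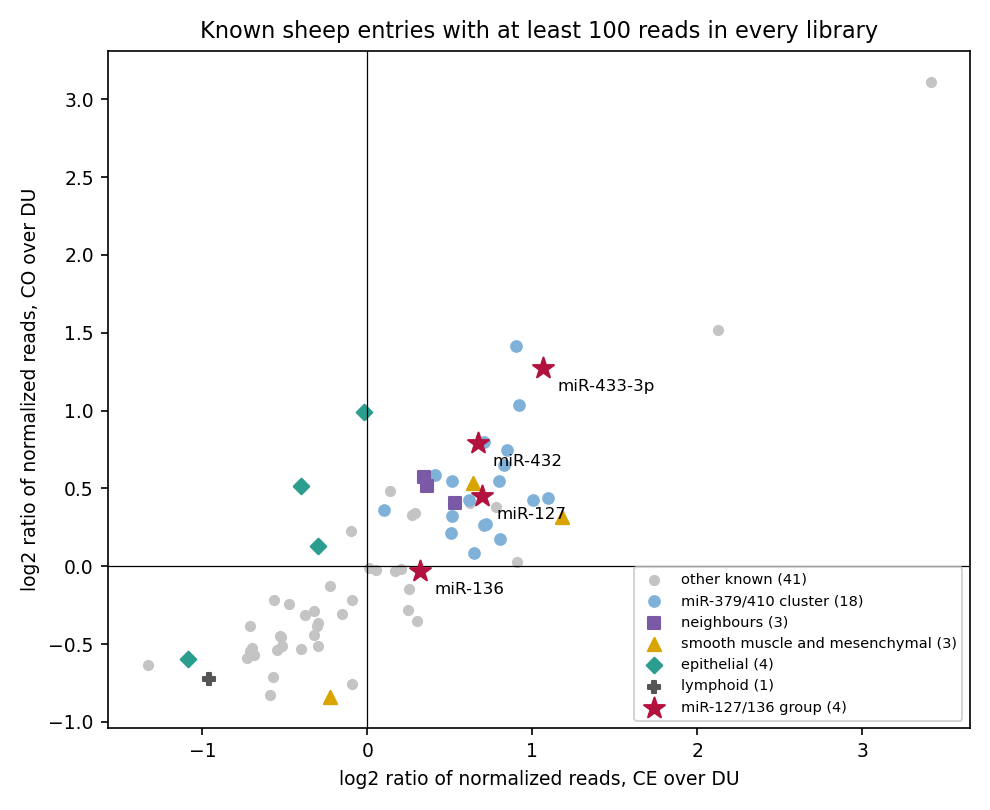
Log2 ratio of normalized reads for CE over DU (x axis) against CO over DU (y axis) for known entries with at least 100 reads in every library, with the members as stars. Both axes share the DU library, so they are not independent. oar-miR-433-3p lies at 1.06 and 1.27, and oar-miR-136 lies lowest of the members at 0.32 and −0.03.

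Markers of the cell types that the tissue could hold also differed between the libraries. miR-143, a miRNA of smooth muscle and other mesenchymal cells, stood at 275281 normalized reads for DU, 429102 for CE, and 399239 for CO. These levels stood beside the label of epithelial tissue. The 3 smooth muscle and mesenchymal entries summed to 278817, 432455, and 401375 normalized reads, nearly all of them from miR-143. The sum was in the order of the members' sum, although miR-199a-3p on its own was highest in the DU library with 3299 normalized reads beside 2819 and 1842. 1 of these 3 entries, oar-miR-133, was called higher in the CE library than in the DU library. The 4 epithelial entries (miR-200a, miR-200b, miR-200c, and miR-194) summed to 28477, 20415, and 33447 normalized reads, highest in the CO library. miR-194 on its own was highest in the DU library, with 9162 normalized reads beside 4306 and 6071. It was the 1 epithelial entry of 4 called lower in CE than in DU, and oar-miR-200b was called lower in CE than in CO. The lymphoid miR-150 had 289, 149, and 175. None of these markers was at 0 in any library. In log2 terms the members' sum differed by 0.70 for CE over DU and 0.48 for CO over DU, the mesenchymal sum by 0.63 and 0.53, and the epithelial sum by −0.48 and 0.23. The mesenchymal sum followed miR-143 and showed little of the other entries of its list. On their own, oar-miR-133 differed by 1.18 and 0.32, and oar-miR-199a-3p went the other way with −0.23 and −0.84. The part of the cell make-up in the members' differences was not tested.

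By construction, the choice of library size moved the log2 ratios of all members by the same amount within a pair of libraries. For CE over DU, oar-miR-433-3p passed the 2-fold threshold under the mapped reads and under 4 of the 5 other library sizes, and it fell to a log2 ratio of 0.81 when the reads of known miRNAs were used. These reads made up 75.9% of the counts for DU, 88.3% for CE, and 90.4% for CO. For CO over DU it stayed past the threshold under all 5 of them. oar-miR-136 crossed 0 for CO over DU.

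**Figure D5:**
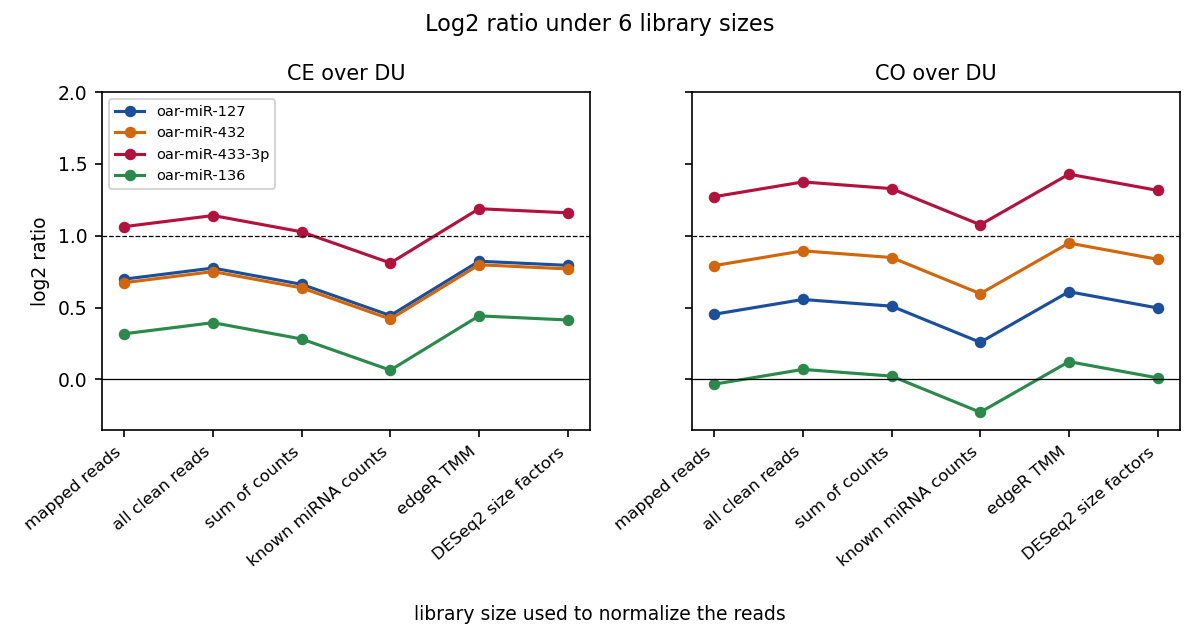
Log2 ratio of the 4 tested members for CE over DU and CO over DU under 6 library sizes, with a dashed line at a 2-fold change. The members shift in parallel by construction. oar-miR-433-3p stays above the dashed line except for CE over DU with known miRNA counts (0.81), and oar-miR-136 lies on both sides of 0 for CO over DU.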

How the data were processed

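Small RNA libraries were made from total RNA with the Illumina TruSeq kit, 1 library for each of the 3 intestinal sections. The authors removed adapter-free, short, and polyA reads, mapped clean reads of at least 18 nt to Oar_v4.0, and deposited raw read counts per known miRNA (miRBase 21.0) or predicted miRNA. The labels name Bowtie, with no version, and the study's methods name SOAP for mapping. Samples were grouped by the section in their labels. Counts were scaled to the mapped reads stated in the study. Counts covered 83.1% to 88.6% of them.

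Each entry that reached 1 normalized read in one or both libraries was tested with the exact Audic-Claverie test (2 times the smaller tail) and Bonferroni correction over all entries tested. The formula, correction, and thresholds follow the study's methods. The filter, the scaling to mapped reads in place of all clean reads, and the doubled tail were set here. A 0 was replaced by 0.01 normalized reads for ratios. Levels relative to oar-miR-127 were tested with Fisher's exact test (two-sided), corrected in the same way. Level and ratio intervals were exact, and intervals of shares were Wilson intervals. The tests were also run on simulated counts, and no outcome of that run is given here. Python 3.11.15, scipy 1.17.1, edgeR 4.0.16, and DESeq2 1.42.0 were used, edgeR and DESeq2 for alternatives only. edgeR's quasi-likelihood test needs replicates and could not be fitted. Planned arm ratios could not be computed, since no member had entries for both arms in the counts used here.

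Named entries were the members, the 5 entries nearest to oar-miR-127 by Euclidean distance between log2 ratios, and the examples with the most reads from lists. oar-miR-323a-3p, oar-miR-411a-3p, oar-miR-21, and the marker entries singled out for a call or direction (oar-miR-133, oar-miR-199a-3p, oar-miR-194, and oar-miR-200b) were named after their values were seen. Members, lists, and the reference miRNA were chosen with earlier results of these data known.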

Additional observations from a re-analysis of the deposited data

How the results depend on the processing

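Alternatives were 5 other library sizes, no filter or at least 10 reads in both libraries, Benjamini-Hochberg correction, edgeR's exact test with its biological coefficient of variation set to 0.2 or 0.4 by assumption, 1 added read, and added-up nested entries. The count of members called between the DU and CE libraries went from 1 to 0 with known miRNA counts as library size and with edgeR at 0.2 and 0.4. That between the DU and CO libraries went from 1 to 0 with edgeR at 0.2 and 0.4. The other 31 of 36 such counts were the same. The log2 ratio of oar-miR-136 for CO over DU changed sign to 0.069 (all clean reads), 0.023 (sum of counts), 0.12 (TMM), and 0.010 (DESeq2 size factors), and 67 of 72 member ratios kept their direction and side of the thresholds. Measured against known miRNA reads in place of oar-miR-127, oar-miR-136 and oar-miR-432 changed sign for CE over DU, to 0.064 and 0.42. On that scale oar-miR-432 was no longer past the correction for CE over CO (−0.18), while oar-miR-432 and oar-miR-433-3p (0.81) came past it for CE over DU and oar-miR-432 (0.60) for CO over DU. By construction, this change of reference added to each value the log2 ratio of oar-miR-127 itself against known miRNA reads. That ratio was 0.44 for CE over DU, 0.26 for CO over DU, and 0.19 for CE over CO. Why oar-miR-127 differed between the libraries was not tested.

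Calls over all entries fell from 127 to 48 (DU and CE), from 123 to 35 (DU and CO), and from 74 to 15 (CO and CE) with at least 10 reads in both, and to 38, 40, and 31 with edgeR at 0.4. With edgeR at 0.2 they fell to 76 for DU and CE, and with nested entries added up to 44 for CO and CE. Library size moved the median log2 ratio of all entries between −0.59 and −0.16 for CE over DU. oar-miR-431 entered the test only without the filter, in the comparisons with the DU library, and the count of members called there stayed at 1. No ratio of it is read here, because its counts were under 3 reads. No paired analysis was possible because each section had 1 library and no replicate numbers, so no replicate could be left out either.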
